A study of Mus musculus with 6 samples.

Results

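Insig1 and Sc5d are 2 genes of sterol metabolism among the 1386 genes and loci in a deposited table from mouse intestinal epithelial cells. They were selected by name from the genes that the authors had listed as higher after gavage with Akkermansia muciniphila (Akk), a gut bacterium that feeds on mucus. That listing rested on the same Akk and PBS libraries described here, so the levels below are a description of the selected values and carry no test. All mice were wild type and ate regular chow. From 8 weeks of age the Akk group received 400000000 bacteria by gavage each day for 7 weeks, and the control group received PBS. Each group has 3 RNA-seq libraries, numbered 1 to 3. The sources used here give neither strain nor sex, nor whether each library came from its own mouse or the bacteria were live. The series title names the jejunum, while the sample labels name only intestinal epithelium.

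Cholesterol synthesis is controlled from the membrane of the endoplasmic reticulum. When sterols are plentiful, INSIG proteins hold the SCAP and SREBP complex in that membrane, so that the SREBP transcription factors are not processed and the genes of sterol synthesis and uptake are transcribed less. Insig1 encodes one of the pair of INSIG proteins, also takes part in the sterol-triggered breakdown of HMG-CoA reductase, and is itself an SREBP target. Sc5d encodes lathosterol oxidase, the sterol C5-desaturase that turns lathosterol into 7-dehydrocholesterol, next to last in the route to cholesterol. Enterocytes both make cholesterol and absorb it from the diet.

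Insig1 (ENSMUSG00000045294) lies on chromosome 5, 28071363 to 28078662, plus strand, in the GENCODE M21 annotation of GRCm38. Its coding transcript has 5 exons and 2697 bases, and a second transcript of 757 bases is annotated as a retained intron. Sc5d (ENSMUSG00000032018) lies on chromosome 9, 42251595 to 42264256, minus strand. It has 3 coding transcripts of 4787, 1677 and 703 bases. No annotated gene overlapped either one. A long noncoding RNA gene on the opposite strand, Gm26608, starts 258 bases upstream of Insig1 and runs away from it. None of the 19 genes within 500 kb of Insig1, nor of the 17 within 500 kb of Sc5d, was in the deposited table.

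The promoters of both genes are shown because they share a run of bases that holds an E-box, a motif of basic helix-loop-helix factors. The sequences are from RefSeq (GRCm38.p6), 5′ to 3′ on the gene's own strand, and stop before the first exon base of either annotation. Capitals mark the E-box CACGTG and the CCAAT box, which both promoters hold as ATTGG, on the opposite strand.
Insig1, chr5:28071162-28071362, plus strand: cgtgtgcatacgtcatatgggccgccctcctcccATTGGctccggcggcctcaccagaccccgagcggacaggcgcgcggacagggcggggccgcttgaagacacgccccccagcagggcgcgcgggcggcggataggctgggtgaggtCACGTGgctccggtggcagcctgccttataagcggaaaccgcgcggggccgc
Sc5d, chr9:42264301-42264550, minus strand: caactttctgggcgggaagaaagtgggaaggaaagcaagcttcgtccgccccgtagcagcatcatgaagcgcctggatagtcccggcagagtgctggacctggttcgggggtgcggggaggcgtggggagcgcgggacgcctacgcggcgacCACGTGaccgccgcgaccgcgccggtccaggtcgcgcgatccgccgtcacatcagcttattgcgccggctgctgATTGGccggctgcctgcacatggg

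The E-box stood at positions -101 to -96 from the RefSeq start of Insig1 and at -98 to -93 from that of Sc5d. From the GENCODE starts given above the positions were -52 to -47 and -142 to -137, so the distances are alike by RefSeq only. The longest run that the 2 promoter windows share on either strand was GGTCACGTGG, which contains the E-box. It lay at -104 to -95 in Insig1 on the plus strand, and at -99 to -90 in Sc5d on the opposite strand. Of 32851 promoter windows of 300 bases (250 before and 50 after the start), 0.414% held this run on either strand and 7.15% held CACGTG. The run was found by comparing these 2 windows, so it was chosen after the sequences were seen. CCAAT occurred in 37.4% of windows, and CACGTG together with CCAAT in 2.54%. In Insig1 the CCAAT box stood at -216 to -212, and in Sc5d at -24 to -20. The GC box GGGCGG, searched on both strands and present in 35.7% of windows, occurred 3 times in the full Insig1 window and 4 times in that of Sc5d. TCACNCCAC, a core of the sterol regulatory element bound by SREBP, is in 1.24% of windows on either strand and was in neither of these 2. A match or its absence describes only the letters of this window.

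Insig1 was listed as higher in Akk. Its level is given in FPKM (fragments per kilobase of transcript, scaled to library depth). It was 25.2, 21.1 and 19.7 in Akk replicates 1 to 3 and 20.3, 14.8 and 13.9 in PBS replicates 1 to 3. The groups overlapped, because PBS replicate 1 lay above Akk replicate 3, while both other PBS libraries lay below all Akk libraries. The mean was 22.0 ± 2.87 FPKM (SD, n = 3) with Akk against 16.3 ± 3.46 with PBS, a ratio of 1.35. The read counts behind these values were 2856, 2238 and 1964 in Akk and 2042, 1343 and 1476 in PBS.

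Sc5d was also listed as higher in Akk, with 25.8, 17.5 and 17.2 FPKM in Akk and 12.3, 12.6 and 16.8 in PBS. Here the groups did not overlap, but the lowest Akk library exceeded the highest PBS library by a factor of only 1.02. Akk replicate 1 stood well above the other 2 Akk libraries. The mean was 20.2 ± 4.88 FPKM (SD, n = 3) with Akk against 13.9 ± 2.53 with PBS, a ratio of 1.45. Counts were 4496, 3141 and 2939 in Akk and 1994, 1896 and 2836 in PBS.

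**Figure D1:**
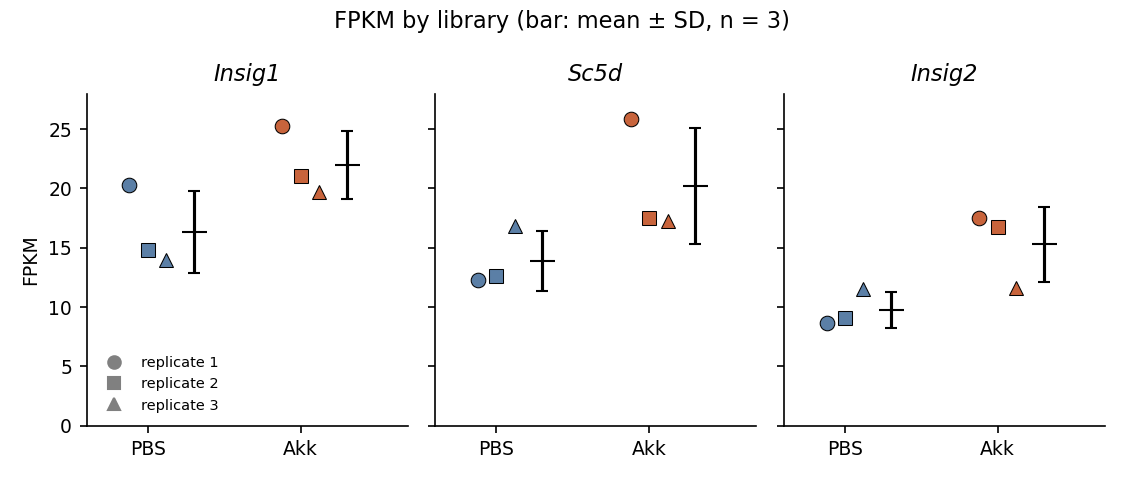
FPKM (vertical axis) of Insig1, Sc5d and the paralog Insig2 in each PBS and Akk library, with the mean and SD of 3 libraries as a bar beside the points and the marker shape giving the replicate number. For Insig1 PBS replicate 1 (20.3) lies above Akk replicate 3 (19.7), and for Sc5d and Insig2 the lowest Akk point lies just above the highest PBS point.

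The differences were larger than the SD within groups, but of the same order. On the log2 scale the difference of mean FPKM, Akk minus PBS, was 0.44 for Insig1, with a pooled SD of 0.24 and a standard error of 0.20 from the gene's own spread. For Sc5d it was 0.53, with a pooled SD of 0.29 and a standard error of 0.24. A count model over the whole table (edgeR quasi-likelihood) gave log2 fold changes of 0.43 (SE 0.44) for Insig1 and 0.55 (SE 0.42) for Sc5d. Without PBS replicate 2, a library described below, the same model gave 0.36 (SE 0.24) and 0.50 (SE 0.24). Neither gene was among the calls of this model, which called 0% of the 1386 genes (0 genes, smallest adjusted p = 0.0861 with Benjamini-Hochberg adjustment). At an unadjusted p under 0.05 it had 791 genes. All 1386 genes had already been selected on this contrast. The adjustment therefore does not have its usual meaning, and no count of calls here is a test. DESeq2 called 786 of the 1386 genes and limma-voom 2, again without Insig1 or Sc5d. Of the DESeq2 calls 712 were lower in Akk and only 74 higher, where 346 genes were listed as higher. Most genes listed as higher were thus not called either, so nothing is read from the absence of these 2.

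The authors' deposited table gives larger differences for both genes than the FPKM in the same table. For Insig1 the authors' deposited table has a log2 fold change of 0.67, which is 1.59-fold, and a p-value of 0.03995. For Sc5d the authors' deposited table has 0.82, which is 1.76-fold, and a p-value of 0.00468. The header does not name the test or say whether these are adjusted. The smallest fold among genes that the authors' deposited table lists as higher is 1.501, and 48 of the 346 have a smaller fold than Insig1 and 130 a smaller one than Sc5d. By mean FPKM both genes were under 1.5-fold, as were 131 of the 346 genes listed as higher (37.9%). The authors' log2 fold change exceeded the log2 FPKM ratio by 0.24 for Insig1 and 0.28 for Sc5d, against a median of 0.20 over 345 genes listed as higher with a PBS level above 0. The sources used here do not say how the libraries were scaled for that fold change.

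**Figure D2:**
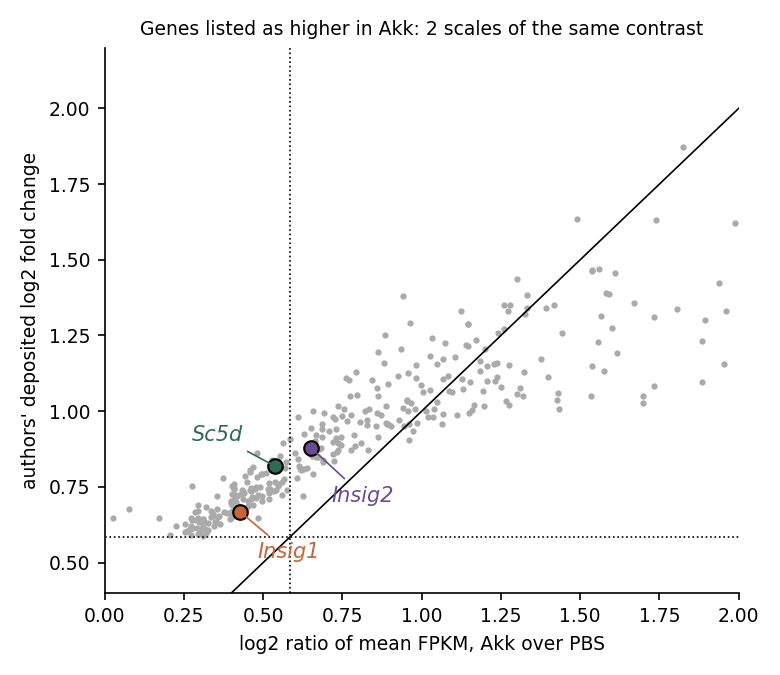
Log2 ratio of mean FPKM, Akk over PBS (horizontal axis), against the authors' deposited log2 fold change (vertical axis) for the genes listed as higher (points, 16 of 345 outside the axes), with dotted lines at 1.5-fold and a solid line of equality. Insig1 (0.43 and 0.67) and Sc5d (0.54 and 0.82) lie above the line of equality, left of the vertical 1.5-fold line, and Insig2 (0.65 and 0.88) to its right.

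Within the 346 genes listed as higher, the 2 genes were among those with small differences and moderate to high levels. By FPKM ratio Insig1 ranked 273 and Sc5d 230 of 346. By the authors' p-value, smallest first, they ranked 302 and 89. Their mean FPKM over the 6 libraries, 19.2 and 17.1, ranked 102 and 114, where the median gene listed as higher had 6.76. The 3 Akk libraries all lay above the 3 PBS libraries for 130 of the 346 genes (37.6%), and for 1 of the 2 genes here. Among those 130 genes, 10 had a narrower gap than Sc5d, and the median lowest Akk library exceeded the highest PBS library 1.20-fold. These genes had all been selected on this contrast, so nothing is read from the counts.

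PBS replicate 2 stood apart in the table as a whole. Among the 1040 genes listed as lower, 1022 reached their maximum there. Summed FPKM over the 12 listed of 16 Paneth cell markers was 9198 there, against 221 and 251 in PBS replicates 1 and 3 and 173 to 207 in Akk. Over the 8 listed of 17 stem cell markers the sum was 668 there, 18.8 and 20.3 in PBS replicates 1 and 3, and 10.1 to 12.8 in Akk. Over the 24 listed of 25 proliferation genes it was 680, then 70.3 and 57.7, and 32.4 to 44.5 in Akk. The 3 listed of 17 enterocyte markers, Apoa4, Apob and Apoc3, summed to 657 there, to 2343 and 3862 in PBS replicates 1 and 3, and to 4538 to 6180 in Akk. For each of these 4 sums the Akk and PBS libraries did not overlap, with or without PBS replicate 2, and the enterocyte sum was higher in Akk, as Insig1 and Sc5d were. Taken singly, 901 of the 1040 lower genes also had no overlap between groups, against 130 of the 346 higher genes. A lack of overlap was therefore common among the lower genes. Apoa4 made up most of the enterocyte sum in every library, with 4527, 5057 and 3660 FPKM in Akk and 1811, 467 and 3101 in PBS. All these markers come from a table selected on this contrast. The 2 listed of 10 goblet cell markers, Zg16 and Muc13, summed to 2094 to 2996 in Akk and 1246 to 2062 in PBS, and of 12 enteroendocrine markers Gip and Sst were listed as higher and Gcg as lower. No immune marker (of 15) or stromal marker (of 10) was listed, and genes that are not listed were not analysed here. Implied depth was 23613381 to 29440187 fragments per library.

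By FPKM, PBS replicate 2 was the lowest library for 149 of the 346 genes listed as higher (43.1%). For Insig1 and Sc5d it ranked second lowest, close to the lowest. Insig1 had 14.8 there against 13.9 in PBS replicate 3, and Sc5d 12.6 against 12.3 in PBS replicate 1. By read count, not scaled to depth, PBS replicate 2 was the lowest for both. It was not the lowest by FPKM for most genes listed as higher, so nothing is read from this rank. Leaving out PBS replicate 2 lowered the log2 ratio of mean FPKM from 0.43 to 0.36 for Insig1 and from 0.54 to 0.47 for Sc5d. Without it edgeR called 24 genes as higher in Akk (1.73% of 1386, Benjamini-Hochberg adjustment), which included neither gene. These calls too were made only among genes already selected on this contrast, so nothing is read from them. The part of the marker levels in the 2 genes' differences was not tested. In bulk RNA, a change in the number of cells of a type cannot be told apart from a change in RNA per cell.

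The 2 genes differed in which control libraries were high. PBS replicate 1 was the highest control library for Insig1 and the lowest for Sc5d, and PBS replicate 3 the reverse. The ratio of Insig1 to Sc5d FPKM, both per length, was 0.976, 1.20 and 1.14 in Akk replicates 1 to 3 and 1.66, 1.17 and 0.829 in PBS replicates 1 to 3. Its mean was 1.11 ± 0.117 (SD, n = 3) in Akk and 1.22 ± 0.416 in PBS, so the group means lay closer together than the PBS libraries did. Over the 6 libraries, log2(FPKM + 1) of the 2 genes correlated at r = 0.58. After each group's mean was subtracted, r was 0.08. These points share the contrast on which both genes were selected, so r describes these 6 libraries only.

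A description of which listed genes followed each one most closely used the same measure over 1157 named genes with a mean FPKM of at least 1. Closest to Insig1 were mt-Nd4l (r = 0.94), mt-Nd4 (0.93), mt-Cytb (0.93) and mt-Nd2 (0.93), which encode respiratory chain subunits in the mitochondrial genome, and Bco1 (0.93), the carotene-cleaving enzyme. In PBS replicates 1 to 3 mt-Nd4 had 9871, 6700 and 6308 FPKM, with the first control library high as for Insig1. In Akk it had 11218, 12392 and 9855. With the group means removed, these 5 genes had r of 0.835 to 0.870 with Insig1, and the same 5 genes led. They were picked as the largest r among 1157 genes over only 6 libraries, and the repeat used the same libraries.

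Closest to Sc5d were Reep3 (r = 0.96), Zg16 (0.94), Ganc (0.93), Acta1 (0.93) and Gcc1 (0.93). Reep3 encodes a protein that shapes the endoplasmic reticulum, Zg16 a lectin of goblet cell mucus, Ganc a glucosidase and Acta1 skeletal muscle actin. Reep3 had 30.4, 25.3 and 21.2 FPKM in Akk and 18.2, 19.1 and 23.1 in PBS, with the third control library high as for Sc5d. The choice of these genes was less stable: 2 of the 5, Reep3 and Acta1, stayed among the closest with group means removed, 2 without PBS replicate 2 and 1 by Spearman's rank correlation. No gene appeared in both sets of 5.

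**Figure D3:**
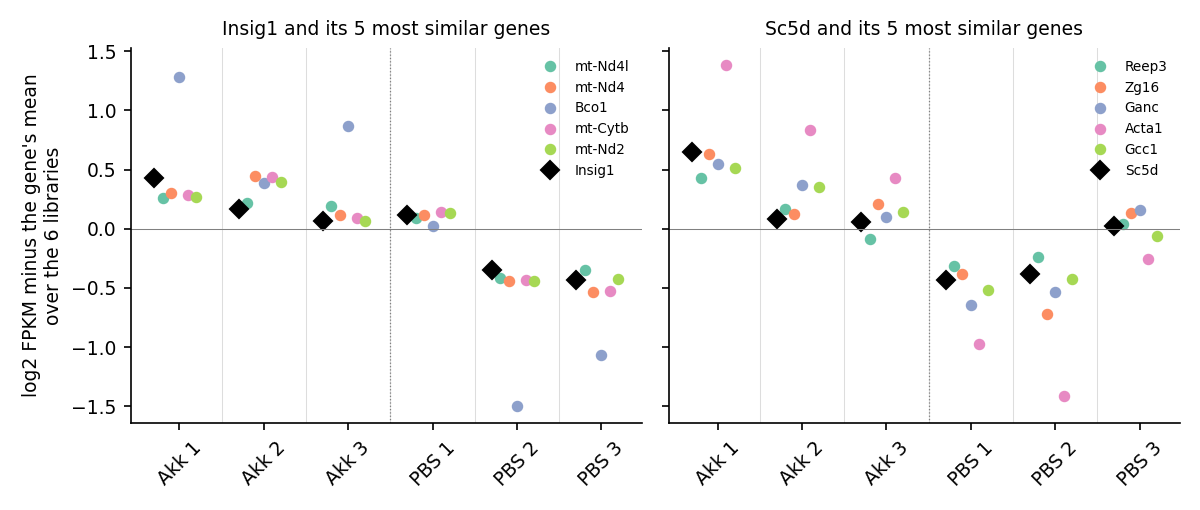
Log2 FPKM minus the gene's own mean over the 6 libraries (vertical axis) in each library for Insig1 (left) and Sc5d (right, both black diamonds) with the 5 genes closest to each (coloured circles). Insig1 and its 5 genes are above their means in PBS replicate 1 and below in PBS replicates 2 and 3, whereas Sc5d and its 5 are lowest in PBS replicates 1 and 2.

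Count and FPKM carried the same comparison for Insig1, but not entirely for Sc5d. A gene's count divided by its FPKM and by the library's depth gives the length that the authors' scaling implies. For Insig1 this was 3.84 to 3.85 kb in all 6 libraries, a coefficient of variation of 0.0206%. For Sc5d it was 5.91, 6.49 and 6.58 kb in Akk and 6.23, 6.35 and 6.13 kb in PBS, a coefficient of variation of 3.90%. The median of 1271 genes with at least 20 counts in each library was 0.794%, and 1002 of them varied less than Sc5d. Both lengths exceed the annotated exons (3.09 and 4.87 kb), and the cause was not tested. The absolute scale of depth is approximate, and the annotation behind the authors' lengths is not named. Counts divided by implied depth gave a ratio of 1.46 for Sc5d, near the 1.45 by FPKM. The gap between groups depended more on the measure. The lowest Akk library exceeded the highest PBS library 1.10-fold by counts per implied depth and 1.02-fold by FPKM.

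**Figure D4:**
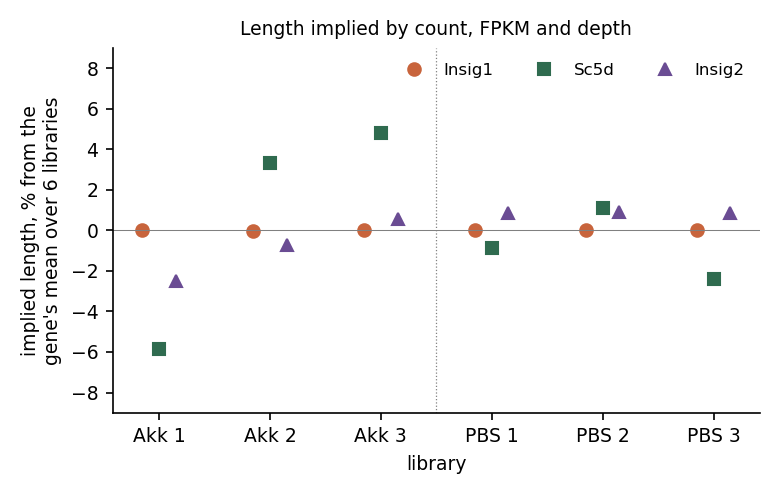
Implied length in each library as percent difference from the gene's mean over the 6 libraries (vertical axis) for Insig1 (circles), Sc5d (squares) and Insig2 (triangles). Insig1 stays at 0, while Sc5d spans -5.88% in Akk replicate 1 to 4.78% in Akk replicate 3.

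The other genes of the pathway were mostly absent from the deposited table. Of 21 enzymes that lead from acetyl-CoA units to cholesterol, 2 were listed, Sc5d as higher and Lbr as lower. Of 19 genes of SREBP control, 3 were listed: Insig1 and Insig2 as higher, and Rnf145, a ubiquitin ligase acting on HMG-CoA reductase, as lower. Of 21 genes of sterol uptake, efflux and esterification, Npc1 was listed as higher and Soat1 as lower. None of the 6 oxysterol enzymes was listed. Over these 4 lists 7 of 67 genes were listed, 4 of them as higher and 3 as lower, where 25.0% of all listed genes were higher. With so few genes the sign of their median turns on a single gene, so no median is given and nothing is read from the share. Sc5d was also the 1 listed gene of 6 in its fatty acid hydroxylase family.

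Insig2, which encodes the other INSIG protein, was the listed gene of these 4 lists closest in level to the 2 described here. It had 17.5, 16.7 and 11.6 FPKM in Akk and 8.66, 9.06 and 11.5 in PBS. As with Sc5d the groups did not overlap, by a factor of 1.01 between the lowest Akk and the highest PBS library. Mean FPKM was 15.3 ± 3.18 (SD, n = 3) in Akk and 9.74 ± 1.53 in PBS. Its r over the 6 libraries was 0.89 with Sc5d and 0.61 with Insig1, and with group means removed 0.74 and 0.01. Per length, Insig1 stood at 1.46 ± 0.218 (SD, n = 3) times Insig2 in Akk and 1.73 ± 0.572 in PBS. None of its 3 RefSeq promoter windows held CACGTG. An annotated locus on the opposite strand, Gm37174, overlaps Insig2, and the sources used here do not say whether the counting used strand.

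Npc1, which exports cholesterol from lysosomes, had 7.11, 6.14 and 7.65 FPKM in Akk and 4.98, 5.13 and 6.21 in PBS, with Akk replicate 2 below PBS replicate 3. Lbr, a sterol C14-reductase of the nuclear envelope, had 2.77 ± 0.596 (SD, n = 3) in Akk and 14.9 ± 18.2 in PBS, of which PBS replicate 2 had 35.9. Rnf145 had 2.59 ± 0.824 and 7.76 ± 5.35, with 13.9 in PBS replicate 2. Soat1, a cholesterol esterifying enzyme, had 0.582 ± 0.0867 and 2.04 ± 2.05, with 4.40 there. The 3 genes listed as lower were all highest in PBS replicate 2, as were 1022 of all 1040 genes listed as lower. That library was highest for only 4 of the 346 genes listed as higher, and for none of Insig1, Sc5d, Insig2 and Npc1. This split follows the listing, so nothing is read from it.

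SREBP also drives lipogenic genes, which serve the synthesis of fatty acids and other lipids, and Insig1 and Sc5d can be set beside them. Of 14 such genes 6 were listed, all as lower: Acaca, Fasn, Scd2, Fads1, Fads2 and Lpin1. Of all listed genes 75.0% were lower, so little is read from that count. Their summed FPKM was 10.2 to 11.5 in Akk, 24.2 and 18.2 in PBS replicates 1 and 3, and 137 in PBS replicate 2. For all 13 listed sterol and lipogenic genes the FPKM means differed in the listed direction, with and without PBS replicate 2. The listing rested on these same libraries, so this agreement was largely fixed in advance and nothing is read from it. Fasn turned to log2 fold changes of 0.05 and 0.02 when RLE and TMM factors were computed from the listed genes, and no other of the 13 changed sign in any of the 15 fits. Insig1 ranged from 0.32 to 1.46 and Sc5d from 0.39 to 1.60 over those fits.

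**Figure D5:**
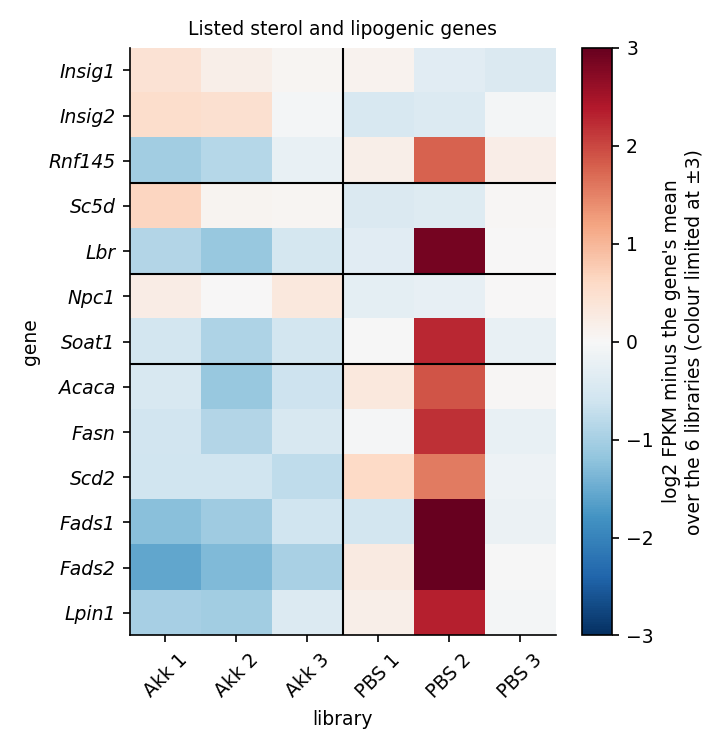
Log2 FPKM minus the gene's own mean over the 6 libraries (colour, limited at 3 in either direction) for the 13 listed sterol and lipogenic genes (rows, grouped as SREBP control, cholesterol synthesis, sterol transport and esterification, and lipogenic enzymes) in each library (columns). The 9 genes listed as lower are highest in PBS replicate 2, as are 1022 of all 1040 genes so listed. Insig1 (-0.345) and Sc5d (-0.39) are below their means there.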

How the data were processed

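The authors deposited a single table with read counts and FPKM of the 6 libraries, per the file headers, beside the authors' p-value and log2 fold change (Akk over PBS). The labels' protocols give Trizol extraction and an Illumina mRNA library, and the submitters' processing notes name mm10. The sources used here name no aligner, counting program, annotation or test. The table holds only selected genes: the authors' largest p-value is 0.0498 and their smallest fold 1.5. Left out were 2 lines of annotation text, and 1 symbol changed to a date was restored. Of 1386 entries, 1322 were found in GENCODE M21.

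The members and gene lists were chosen with earlier results of these data known. Library depth came from count over FPKM in 560 genes with at least 200 counts in each library, and its absolute scale from the exon length of 548. It served as library size in edgeR 4.0.16 (R 4.3.3, quasi-likelihood, filterByExpr, Benjamini-Hochberg at 0.05), fitted on all listed genes. These were selected on the same contrast, so adjusted p-values and counts of calls describe the selected table only. TMM factors assume mostly unchanged genes, which a selected table breaks. Of the sterol lists, 1 listed gene is not reported here and enters none of their counts. The SE is the log2 fold change divided by the square root of F. The fit was run on simulated counts with known changes in some of the genes. That simulation held no deviant library and no selection of genes, so it checks the code only, not the fit to these data. Replicates differed by far more than counting noise. Named were Insig1, Sc5d, listed members of the sterol and lipogenic lists, and the 5 genes closest to each by Pearson correlation of log2(FPKM + 1). Gm26608, Gm37174 and those named only in the closing section were picked with their values known. Alternatives were other factors and filters, DESeq2 1.42.0, limma-voom (limma 3.58.1), a replicate block, FPKM ratios, other measures of likeness, and each library left out in turn. P-values measure the spread between these libraries, which may in part be technical.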

Additional observations from a re-analysis of the deposited data

How the results depend on the processing

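Both genes stayed higher in Akk under every alternative run. Scaling factors taken from the selected table moved the log2 fold change most: to 1.42 (RLE), 1.46 (TMM) and 1.03 (upper quartile) for Insig1, and to 1.57, 1.60 and 1.18 for Sc5d. The same factors moved the median of all listed genes from -1.85 to -0.15, -0.17 and -0.63. Fits that each dropped 1 library gave 0.32 to 0.61 for Insig1, 0.39 to 0.69 for Sc5d, and a mean Insig1 to Sc5d ratio of 1.06 to 1.23. The number of genes called by edgeR, 0, became 6 with the replicate block, 786 with DESeq2 (262 adjusted p were NA) and 2 with limma-voom; the cause was not tested. Without single libraries it ranged from 0 to 734: it was 734, 270 and 732 when PBS replicate 1, 2 or 3 was left out, and 0 when any Akk library was. No gene was lost to either low-count filter. With the replicate block the log2 fold changes were 0.44 and 0.55. Same-numbered libraries deviated together at r = 0.23, -0.07 and -0.31, so the numbers were not taken to pair them. Genes whose groups did not overlap numbered 131 by counts per depth and, chosen after seeing the data, 157 without PBS replicate 2. Each value of the 2 genes rests on at least 1343 counts, so counting error is small beside the spread between libraries.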

Other observations

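The authors' own annotation in the table puts a gene ontology term with cholesterol or sterol in its name on 6 genes that the authors' deposited table lists as higher in Akk. They are Insig1, Insig2, Npc1, Scp2, G6pc and Ces1d. Scp2, a sterol carrier protein of peroxisomes, had 297, 262 and 188 FPKM in Akk and 143, 114 and 188 in PBS, with Akk replicate 3 just below PBS replicate 3. Sc5d carries no such term there and is placed instead in the KEGG pathway of steroid biosynthesis, together with Lbr and Soat1, both listed as lower.

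Insig2 differed from Insig1 in the length implied by count and FPKM. It was 3.72, 3.79 and 3.84 kb in Akk replicates 1 to 3 and 3.85 kb in each PBS library, a coefficient of variation of 1.36%, and 778 of 1271 genes varied less. Insig2 has 14 annotated transcripts and Insig1 has 2, and transcript levels were not analysed here.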
